A study of Homo sapiens with 9 samples.

Results

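The data described here are the 6 libraries, of 9 in the series, in which hTERT_RPE1 cells were grown for 24 h either on fibronectin-coated glass (Control, 3 libraries) or on a fibronectin-coated acrylamide gel of 2.3 kPa (Soft, 3 libraries). They were chosen by their labels alone. hTERT_RPE1 is an established human line from the retinal pigment epithelium that was made immortal by telomerase. Cells of both groups carried the vector without a PIP4K2B hairpin. The sample titles name empty pLKO for both groups and the treatment label a control shRNA, so whether a hairpin was expressed is not settled. The other 3 libraries, cells on glass with 1 of 3 hairpins against PIP4K2B (sh_PIP4K2B), are used only for contrast. Substrate coating, time and vector are the same in both groups, and the substrate differs in both stiffness and material.

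Cells hold on to their substrate through integrins, which connect to actin stress fibres, and the pull they can develop depends on how far the substrate resists. On stiff ground the coactivators YAP and TAZ enter the nucleus and drive TEAD-bound genes, and actin polymerisation releases MRTF to work with SRF on genes of the contractile machinery. On compliant ground spreading and tension are low, and anchorage-dependent cells often slow their entry into S phase.

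Total counts were 22560086, 23682558 and 24020799 in Control and 21215122, 20478070 and 21776264 in Soft. A count of 3 in 1 library, taken as the floor, corresponded to 0.1249 to 0.1465 counts per 1000000 counts of the library (CPM). Levels are given as CPM on the TMM scale. It scales each library by a mean of its gene ratios to a reference library, with the most deviating genes put aside. The median SD of log2 CPM between libraries was 0.0761 in Control and 0.0704 in Soft, and the first principal component, with 91.92% of the variance, separated the groups. Reads on nuclear rRNA made up 3.19% to 3.76% of the counts in Control and 2.02% to 2.7% in Soft, and their part in any result was not tested. Nothing in the labels states that the 3 libraries of a group came from separate cultures, so p-values measure the spread between these libraries.

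Markers fitted the labelled cell type in part. Transcription factors of the retinal pigment epithelium were present, with OTX2 at 10.8 and MITF at 36.3 CPM in Control, as were the simple keratins KRT8 and KRT18. Most genes of the mature tissue were not: RPE65, RLBP1, LRAT, TYR, TYRP1, PMEL, SERPINF1 and TTR all had too few counts to be tested. BEST1, also of the mature tissue, was detected at low levels. Scaled over all 9 libraries, BEST1 had 0.0466, 0.307 and 0.0874 CPM in Control and 0.775, 0.667 and 0.715 CPM in Soft. Among markers of other cells, PTPRC and CD3E (leukocytes), CDH5 (endothelium) and EPCAM and CDH1 (other epithelia) were likewise not tested. Of 9 leukocyte markers 2 were tested and both were higher in Soft: CD68, a lysosomal glycoprotein of macrophages (65.6 to 143 CPM), and CD14, a receptor of monocytes (0.0882 to 0.636 CPM). CD14 was near the floor in Control and could be tested through its Soft levels, so it could only pass as higher. The summed level of these 9 was 63.3 to 67.8 CPM in Control and 141 to 147 CPM in Soft, AIF1 and MS4A1 had no count in any library, and the part of these markers in any result was not tested. NRL, of photoreceptors (0.309 to 0.731 CPM), and SNAP25, of neurons (1.12 to 1.52 CPM), did not pass (adjusted p = 0.017 and 0.12, edgeR), but NRL passed as higher in 4 alternatives, among them those without Control replicate 3 or Soft replicate 3. In bulk RNA, fewer cells of a kind and less RNA per cell cannot be told apart, and this holds for every value below.

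Of the 26475 genes listed, 13578 had enough counts to be tested. Enough counts in either group sufficed. A gene near the floor in the other group could then pass only toward the group where it was high. At an adjusted p under 0.01 (edgeR), 4818 genes (35.5%) were higher in Soft and 4783 (35.2%) were lower. With the further demand of a 2-fold change, 1710 genes (12.6%) were higher and 1072 (7.9%) lower. With the 3 hairpin libraries added to the fit, 2181 genes were higher and 2036 lower (15.8% and 14.8% of 13784). Counts of a list from that fit stand in parentheses after those of the 6 libraries, as counts with 9 libraries. The median log2 fold change over all genes tested was 0.008. Changes of at least 16-fold were found in 76 genes that rose and 29 that fell. Groups without overlap are mentioned below for single genes, and the share of all genes in that state was not counted. Direction went with the level of a gene: of 93 genes with a mean of 1000 CPM or more 26 rose and 56 fell, while of 979 genes under 1 CPM 324 rose and 134 fell. It also went with base composition. When genes were split into 3 equal classes by the GC content of their transcript, 19.2% of the lowest class rose and 51% fell, against 51.4% and 21.7% in the highest class. Each list below was therefore also read after transcript GC content and length had been corrected for, and where the median of a list is printed, the corrected one follows if it differs by more than 1.5 times and either exceeds 0.1 in size. What part the base composition of the transcripts has in these results was not tested.

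**Figure D1:**
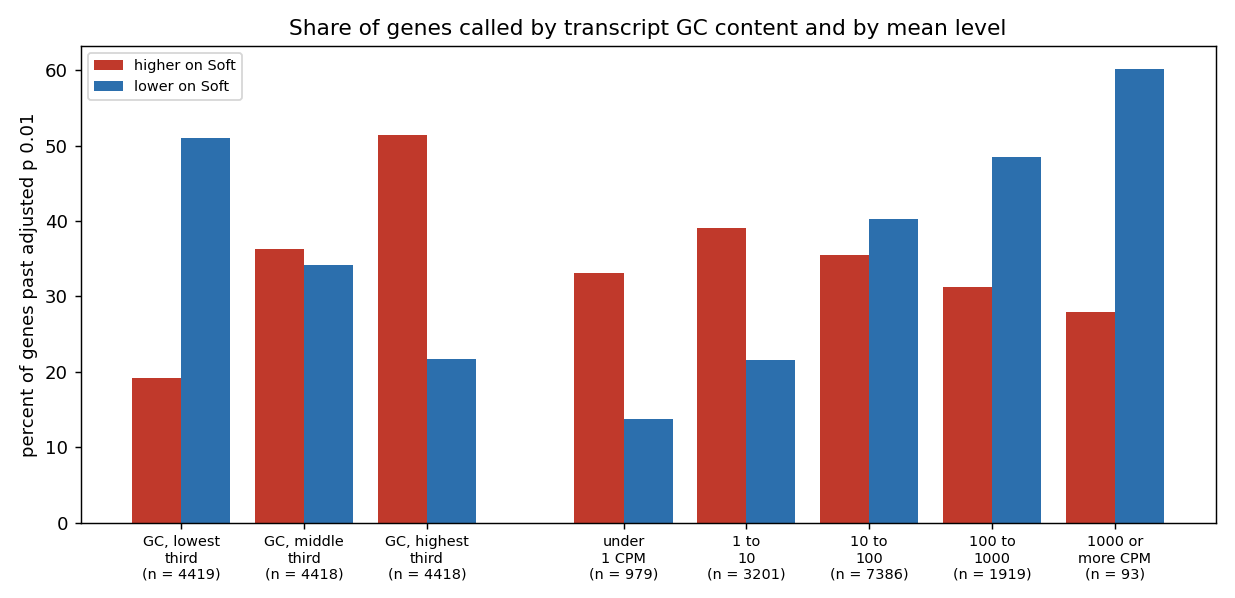
Bars give the percent of genes past an adjusted p of 0.01 that were higher (red) or lower (blue) in Soft, in 3 equal classes of transcript GC content and in 5 classes of mean CPM, with the number of genes tested under each class. The lowest GC class fell in 51% of its genes and the highest rose in 51.4%.

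**Figure D2:**
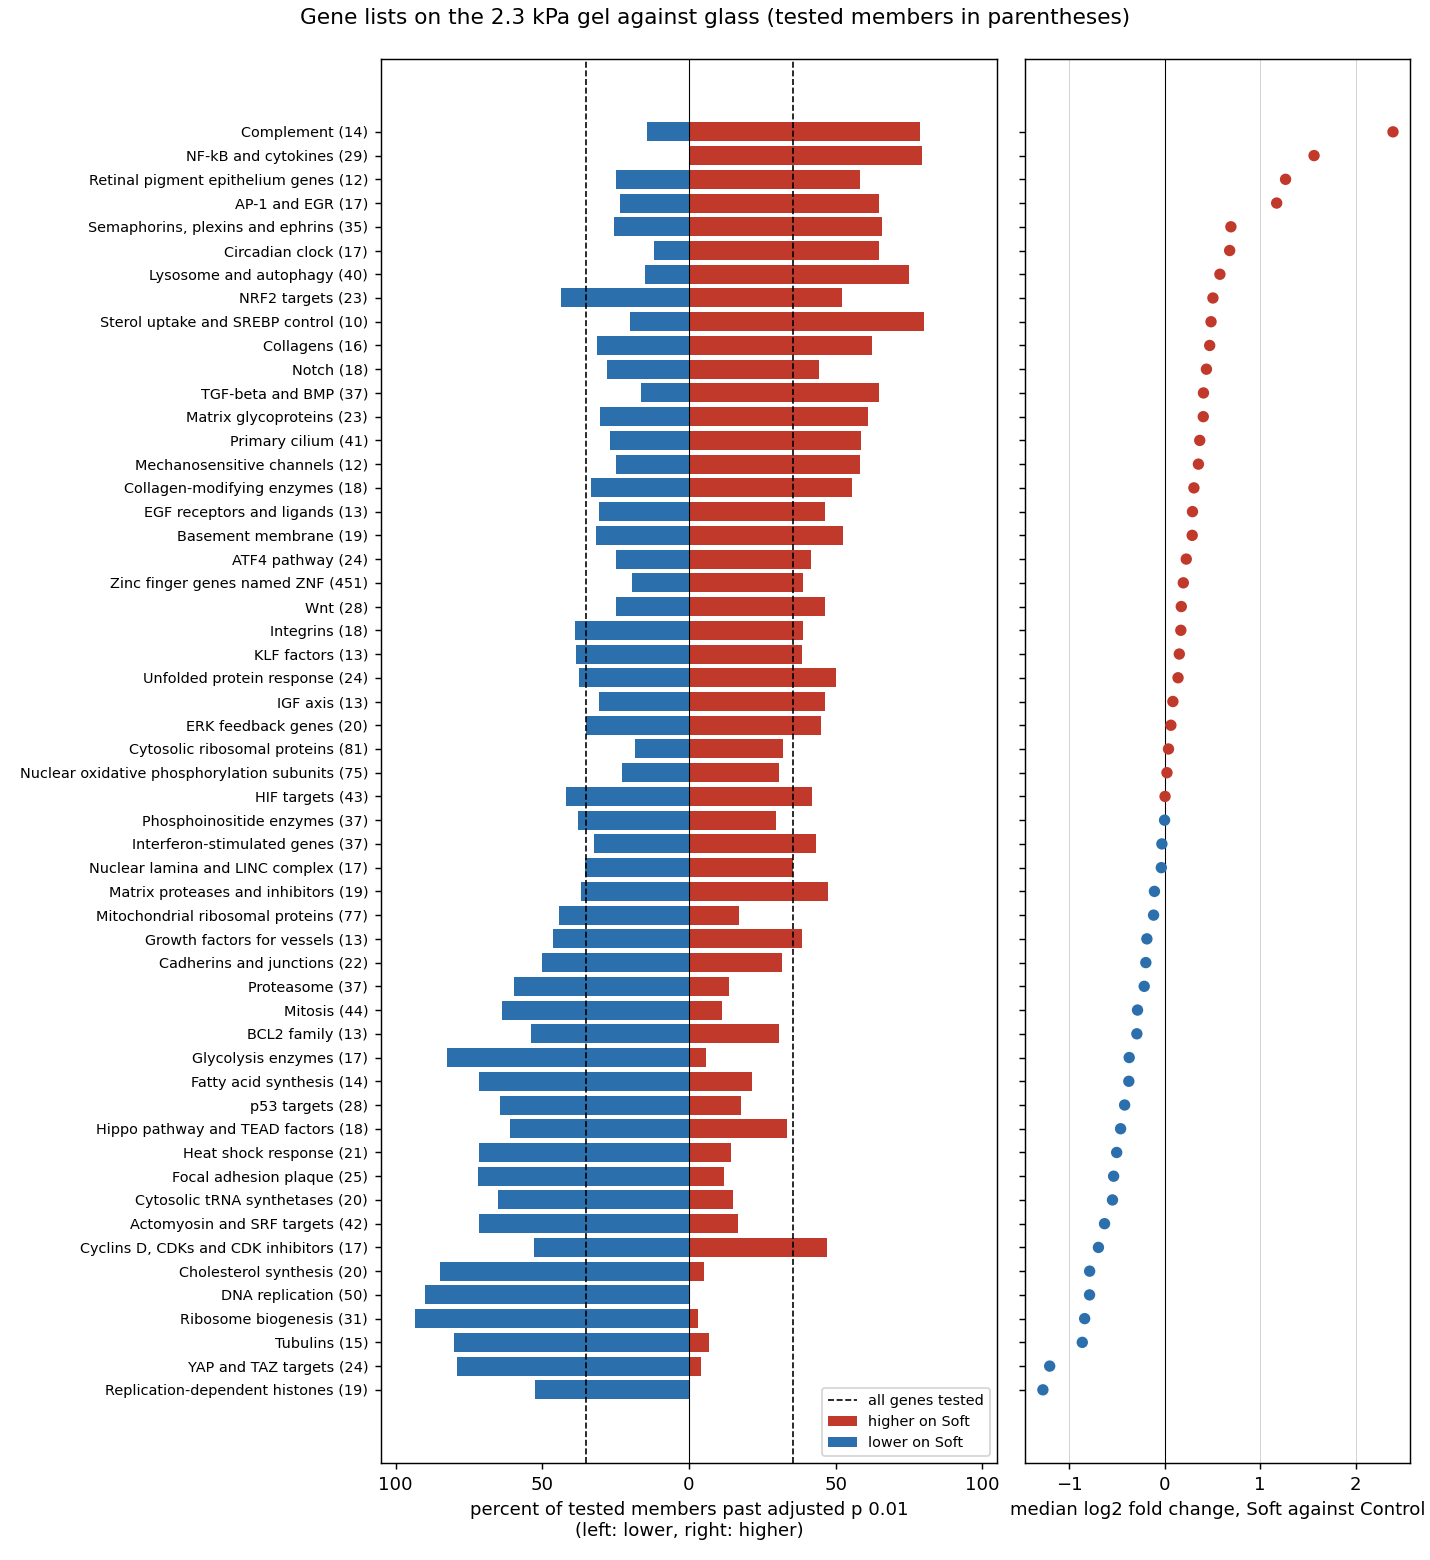
Left, the percent of tested members of gene lists with at least 10 tested members, marker lists left out, that were higher (right of 0, red) or lower (left of 0, blue) in Soft at an adjusted p under 0.01, with dashed lines at the 35.5% and 35.2% of all genes tested. Right, the median log2 fold change of each list, from -1.27 for replication-dependent histones to 2.39 for complement.

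Among the largest rises and falls were genes close to silent on one of the substrates. SYT12, a synaptotagmin of vesicle traffic, had 0.738, 0.438 and 0.26 CPM in Control and 77.7, 83.2 and 76.2 CPM in Soft. It was a gene near the floor on glass and well expressed on the gel (log2 fold change 7.36, SE 0.13, adjusted p = 1.1e-15, edgeR). BMF, a BH3-only member of the BCL2 family that was first described as bound to the actomyosin cytoskeleton, had 4.98, 4.55 and 5.08 CPM in Control and 224, 229 and 229 CPM in Soft, a 46.7-fold rise (log2 fold change 5.55, SE 0.06, adjusted p = 1.4e-17, edgeR). Its 3 libraries agreed closely within each group. NDRG4 rose from 1.57 ± 0.0863 to 64.9 ± 0.595 CPM (SD, n = 3), and PTGES, the inducible prostaglandin E synthase, from 0.837 ± 0.356 to 32.1 ± 3.196 CPM (SD, n = 3). CHI3L1, a secreted chitinase-like glycoprotein, had 0.231, 0.306 and 0.391 CPM in Control and 21.1, 15.5 and 20.02 CPM in Soft. COLEC12, a scavenger receptor, rose from 0.846 to 31.1 CPM. Further genes among the 15 with the highest fold change were CP (ceruloplasmin), BGLAP, TMEM26, VWA5A, DRAXIN and YPEL4, all below 0.5 CPM in every Control library. PECAM1, an adhesion molecule best known from endothelium, had 0.0461, 0.0438 and 0.217 CPM in Control and 4.66, 5.26 and 4.31 CPM in Soft. Of the other endothelial markers KDR, a VEGF receptor, was also higher (1.44 to 3.23 CPM), TEK and TIE1 were lower, VWF and ESAM did not pass, and CDH5 and CLDN5, which define the cell type, were not tested. The summed level of the whole list lay between 4.201 to 5.64 CPM in Control and 9.28 to 10.98 CPM in Soft.

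Both near-identical pairs among the highest genes need to be read as sums. C4B had no count in any Control library and 22.9, 13.3 and 17.5 CPM in Soft, and SULT1A4 had none against 7.195, 8.31 and 7.77 CPM. Against the floor of 3 counts per library C4B was at least 129.5-fold and SULT1A4 at least 56.04-fold higher. Each shares most of its sequence with a neighbour copy, so the assignment of reads between the copies is uncertain. C4A and C4B together had 2.03, 0.744 and 1.65 CPM in Control and 37.5, 39.4 and 38.8 CPM in Soft, a 26.2-fold difference of means with no overlap. SULT1A3 and SULT1A4 together had 7.11, 3.89 and 4.56 CPM in Control and 14.2, 14.8 and 12.9 CPM in Soft, a 2.69-fold difference. The complement pair thus remained among the strong changes as a sum, and the sulfotransferase pair became a moderate one.

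At the other end stood hair keratin genes of chromosome 17. KRTAP2-3 (chr17:41059240-41060114, GRCh38) had 49.5, 53.4 and 55.3 CPM in Control and 0.181, 0.61 and 0.444 CPM in Soft. KRT34 (chr17:41377669-41382306) had 21.2, 22.3 and 20.7 CPM in Control and 0.226, 0.61 and 0.399 CPM in Soft. Both went from a clear level to near the floor. KRTAP1-5 (1.47 to 0.302 CPM) also fell, and KRTAP4-8 had no count in Soft, where it was at least 5.878-fold lower than its Control mean of 0.827 CPM. These were 4 of the 4 keratin-associated protein genes that could be tested, of 93 in the table, with KRTAP1-1 as the remaining one. The genes of this family resemble each other, so reads may be shared among them. ESM1, an endothelial proteoglycan that responds to VEGF, had 48.8, 56.8 and 61.1 CPM in Control and 1.403, 2.86 and 1.73 CPM in Soft (log2 fold change -4.80, SE 0.14, adjusted p = 2.6e-13, edgeR). EDN1, the vasoconstrictor endothelin 1, had 32.4, 36.5 and 35.2 CPM in Control and 1.72, 1.97 and 2.13 CPM in Soft (log2 fold change -4.16, SE 0.10, adjusted p = 2.7e-14, edgeR). LIPH, SULT1B1, STYK1, TMEM40, NLRP10 and the transcripts C15orf54, LINC01483, SFTA1P and LOC103021295 completed this end of the range, all below 1 CPM in every Soft library.

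**Figure D3:**
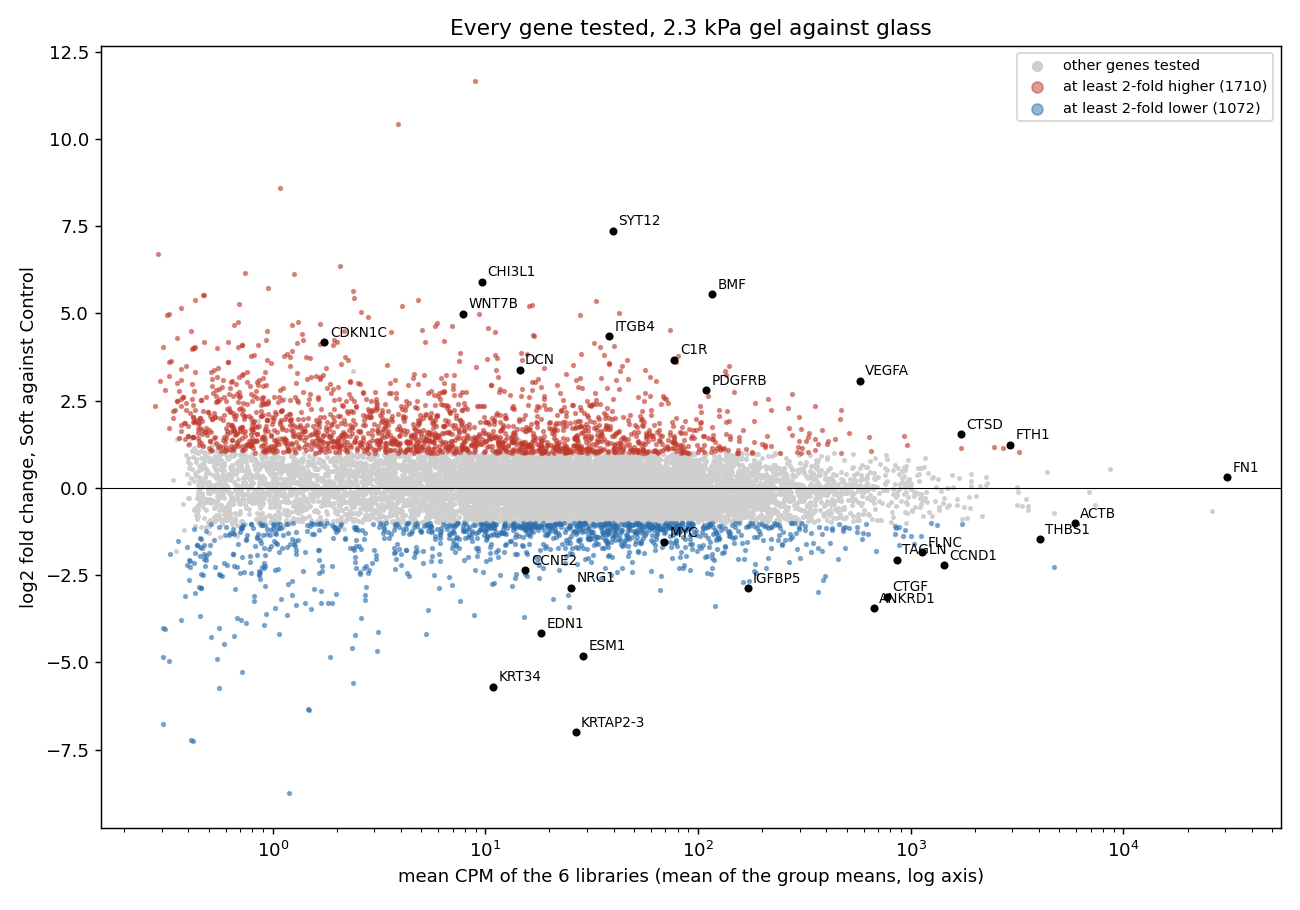
Each point is 1 of the 13578 genes tested, with its mean CPM on a log axis and its log2 fold change in Soft against Control. Red and blue points are the 1710 and 1072 genes at least 2-fold higher or lower at an adjusted p under 0.01, and black points carry the names of genes described in the text.

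Large differences in CPM included falls of cytoskeletal and matricellular genes and rises of matrix, iron storage and lysosomal genes. ACTB, the gene of beta-actin, fell from 7898 ± 132 to 3920.4 ± 128 CPM (SD, n = 3), THBS1 from 5935 to 2152 CPM, VIM from 8540.4 to 6091 CPM and ACTG1 from 5878 to 3541 CPM. FN1, the fibronectin gene, had 28014, 27458 and 26708 CPM in Control and 30824, 35909 and 34901 CPM in Soft, and its groups did not overlap (log2 fold change 0.31, SE 0.05, adjusted p = 1.8e-05, edgeR). Its rise did not pass in the fit of all 9 libraries. EEF1A1 rose from 6988 to 10220.0 CPM, FTH1, the ferritin heavy chain, from 1746 to 4111 CPM, PSAP, the precursor of saposins, from 2125 to 4309 CPM, and MMP14 and MMP2, a membrane-bound protease and the gelatinase it activates, from 1690.3 to 3762 CPM and from 1523 to 3403 CPM. These genes were chosen after their values were seen, from those with the largest differences in CPM.

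Of 24 YAP and TAZ targets 19 fell and 1 rose (16 and 0 with 9 libraries), with a median log2 fold change of -1.20. ANKRD1, which encodes a muscle ankyrin repeat protein, had 1202, 1237 and 1235 CPM in Control and 98.2, 125 and 114 CPM in Soft, 10.9-fold lower (log2 fold change -3.45, SE 0.06, adjusted p = 2.3e-15, edgeR). CTGF, a matricellular growth factor ligand also called CCN2, had 1378, 1397 and 1371 CPM in Control and 152, 163 and 162 CPM in Soft, 8.69-fold lower (log2 fold change -3.12, SE 0.04, adjusted p = 9.1e-17, edgeR). F3, the tissue factor that starts coagulation, fell from 664 ± 16.8 to 106 ± 4.43 CPM (SD, n = 3), and CYR61, the relative of CTGF, from 753 ± 4.08 to 230.3 ± 4.97 CPM (SD, n = 3). The Control and Soft libraries of these genes lay far apart. AXL and NT5E, often used as markers of YAP activity, did not follow, at 646 to 659 CPM (adjusted p = 0.48, edgeR) and 659 to 686 CPM (adjusted p = 0.17, edgeR), and ARHGEF17 was the member that rose (0.41 on the log2 scale), a call that was lost after correction for GC content and length. With that correction AXL passed as lower and NT5E as higher, each by less than 0.25 on the log2 scale, and with scaling by library totals both passed as higher.

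Promoter sequences are printed for ANKRD1 and CTGF because TEAD factors, the DNA-binding partners of YAP and TAZ, bind the letters GGAATG and both windows hold them more than once. Capitals mark these letters on the given strand or their reverse complement. The sequences are those of RefSeq on GRCh38.p14, 5′ to 3′, and end 1 base before the annotated start.
ANKRD1, chr10:90921088-90921337, minus strand: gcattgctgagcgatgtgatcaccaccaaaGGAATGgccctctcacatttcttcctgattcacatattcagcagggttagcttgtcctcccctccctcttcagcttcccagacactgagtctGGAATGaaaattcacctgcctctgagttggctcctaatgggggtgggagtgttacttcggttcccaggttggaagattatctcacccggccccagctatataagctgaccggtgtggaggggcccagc
CTGF, chr6:131951373-131951622, minus strand: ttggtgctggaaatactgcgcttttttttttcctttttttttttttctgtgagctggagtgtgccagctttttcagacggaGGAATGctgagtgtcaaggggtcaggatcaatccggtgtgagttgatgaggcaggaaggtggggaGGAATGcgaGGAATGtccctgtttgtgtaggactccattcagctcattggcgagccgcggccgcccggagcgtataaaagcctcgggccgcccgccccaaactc
A window from 250 bases before to 50 after the start was given for 17 of the 24 targets, and 7 (41.2%) held GGAATG on either strand. Over all genes tested with such a window 1173 of 10906 (10.8%) did. FJX1 and F3, which fell, had no match in this window.

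Members of the pathway that controls YAP also differed at the RNA level. Of 18 members tested 11 fell and 6 rose (7 and 3 with 9 libraries). The 33.3% that rose is near the 35.5% of all genes, and the 61.1% that fell is above their 35.2%. The median was -0.46, and -0.28 after correction for GC content and length. VGLL3, a TEAD cofactor, had 53.7, 58.4 and 67.2 CPM in Control and 11.6, 9.43 and 8.74 CPM in Soft. VGLL4, a cofactor that competes with YAP for TEAD, had 50.6, 48.4 and 47.6 CPM in Control and 203, 203 and 203 CPM in Soft. These cofactors thus moved in opposite directions, each with groups that did not overlap. Among the factors themselves TEAD1 fell (179 to 107 CPM) and TEAD2 rose (25.7 to 78.05 CPM), and YAP1 fell by 0.36 while WWTR1, the gene of TAZ, rose by 0.93 on the log2 scale. NF2, the upstream tumour suppressor merlin, fell from 188 ± 6.48 to 55.99 ± 1.81 CPM (SD, n = 3).

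Genes of the contractile machinery fell broadly. Of 42 actomyosin and SRF target genes 30 fell and 7 rose (16 and 2 with 9 libraries), and 12 fell at least 2-fold. Their summed level was 44019 to 45521 CPM in Control and 28616 to 29202 CPM in Soft. TAGLN, the smooth muscle protein transgelin, had 1406, 1373 and 1371 CPM in Control and 351, 322 and 329 CPM in Soft (log2 fold change -2.05, SE 0.04, adjusted p = 2.4e-15, edgeR). FLNC, a filamin, fell from 1759 to 493 CPM, ACTA2, smooth muscle actin, from 153 to 48.5 CPM, ACTN1, an actin cross-linker, from 1449 to 557 CPM, and MYL9, a myosin light chain, from 783 to 328 CPM. SRF itself fell by 0.26, which did not pass with scaling by library totals alone or with 9 libraries. MKL1, the gene of MRTF-A, did not pass (log2 fold change 0.00, SE 0.05, adjusted p = 0.95, edgeR), but was lower after the GC and length correction. The members that rose were TMSB4X and TMSB10, which encode thymosins that bind actin monomers, MYLK, the myosin light chain kinase, MYH10, a non-muscle myosin, MKL2, the other MRTF, TAGLN2, a relative of transgelin, and LMOD1, a leiomodin. TAGLN2 and LMOD1 rose by 0.20 and 0.21 on the log2 scale, and both calls were lost after correction for GC content and length. The call of LMOD1 was also lost with the replicate block and without Control replicate 1 or 3 or Soft replicate 1 or 3. TMSB4X rose from 488 to 742 CPM and MKL2 from 19.8 to 31.1 CPM.

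The plaque that joins integrins to actin lost RNA as well, with 18 of 25 members lower and 3 higher (8 and 2 with 9 libraries) and a median of -0.53. NEDD9, a scaffold of the CAS family, had 27.9, 29.97 and 27.9 CPM in Control and 5.97, 7.51 and 6.08 CPM in Soft. The large adaptors PXN (408 to 203 CPM), VCL (1196 to 729 CPM), ZYX (632 to 348 CPM) and TLN1 (1235 to 853 CPM) fell by less. PTK2, the focal adhesion kinase, did not pass, with a log2 fold change of 0.01, but passed as higher with scaling by library totals. KANK2, which links talin to microtubules at the rim of adhesions, rose from 123 ± 3.83 to 291 ± 8.59 CPM (SD, n = 3).

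Caveolae are membrane pits that flatten under tension, and 7 of the 7 genes tested fell (4 with 9 libraries). SDPR, also called cavin 2, had 13.02, 13.2 and 15.01 CPM in Control and 1.403, 1.03 and 1.86 CPM in Soft. CAV1, the main coat protein, had 651, 655 and 717 CPM in Control and 315, 266 and 284 CPM in Soft. PTRF, cavin 1, fell from 1206 ± 37.98 to 559 ± 7.09 CPM (SD, n = 3). The median of the list was -0.99, and -0.54 after correction for GC content and length. Tubulin genes fell in 12 of 15 cases (10 with 9 libraries), led by TUBB2A (142 to 30.6 CPM) and TUBB6 (519.7 to 174 CPM), with a summed level of 8928 to 9379 CPM in Control and 4732 to 5176 CPM in Soft.

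**Figure D4:**
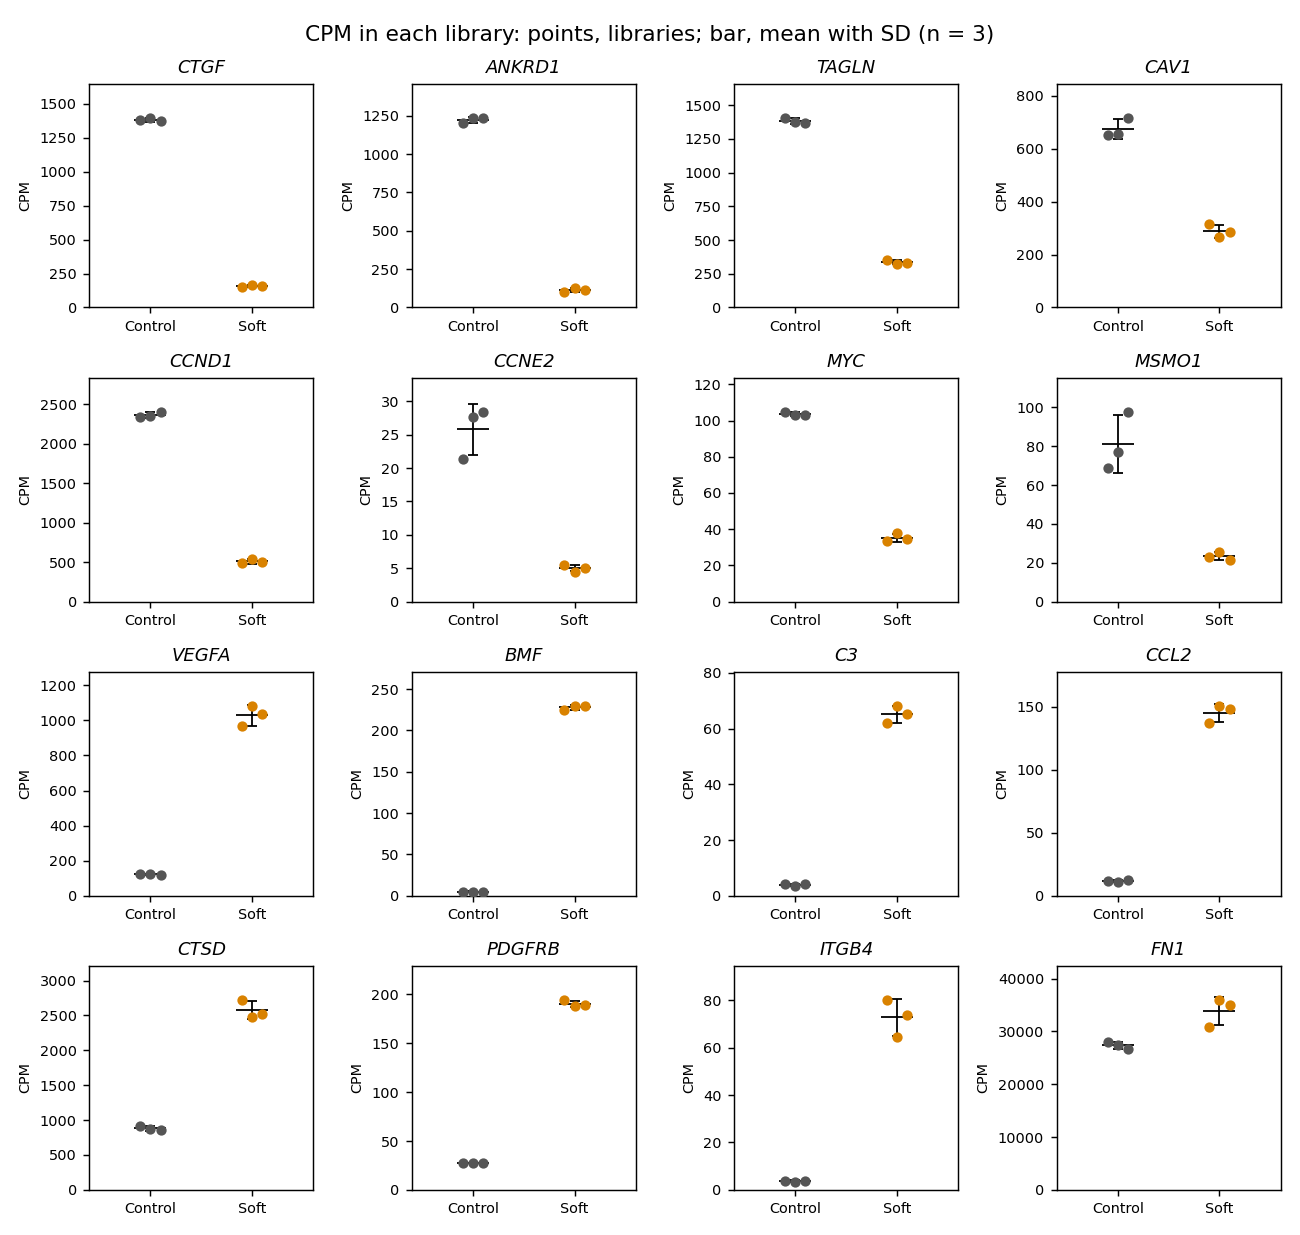
CPM of 16 genes in each library (points) with the mean and SD of each group (n = 3), on linear axes from 0. In each panel the 3 Soft libraries lie entirely below (CTGF, ANKRD1, TAGLN, CAV1, CCND1, CCNE2, MYC, MSMO1) or above (VEGFA, BMF, C3, CCL2, CTSD, PDGFRB, ITGB4, FN1) the 3 Control libraries. The genes were chosen with their values known. Of all genes tested 35.5% passed as higher and 35.2% as lower, and the share without overlap was not counted.

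Genes of DNA replication were lower in nearly all cases. Of 50 members 45 fell and 0 rose (37 and 0 with 9 libraries), and 5 did not pass, with a median of -0.79 against 0.008 over all genes. With scaling by library totals or upper quartiles, or with the GC and length correction, 2 members passed as higher. CCNE2, a cyclin of S phase entry, had 21.4, 27.6 and 28.4 CPM in Control and 5.48, 4.505 and 5.06 CPM in Soft. CCNE1, the other E-type cyclin, had 17.4, 17.9 and 18.1 CPM in Control and 4.89, 5.303 and 5.33 CPM in Soft. For both, the Soft libraries lay entirely below the Control libraries. CDC6, which loads the replicative helicase, fell from 87.4 ± 1.14 to 23.99 ± 0.926 CPM (SD, n = 3). The helicase subunits themselves fell by less, between 0.79 (MCM4) and 0.14 (MCM7) on the log2 scale, and RRM2, the regulated subunit of ribonucleotide reductase, fell from 325 to 156 CPM. The fall of MCM7 did not pass in 6 of the alternatives, among them the omission of Control replicate 2, of Soft replicate 2 or of Soft replicate 3.

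Windows of MCM6 and E2F1 are shown as examples of replication genes with a binding motif of E2F factors, which drive S phase genes. Capitals mark TTGGCGC, with no overlap between matches.
MCM6, chr2:135876503-135876623, minus strand: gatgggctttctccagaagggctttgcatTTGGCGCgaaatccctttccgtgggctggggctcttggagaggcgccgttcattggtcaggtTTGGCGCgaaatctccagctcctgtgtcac
E2F1, chr20:33686386-33686445, minus strand: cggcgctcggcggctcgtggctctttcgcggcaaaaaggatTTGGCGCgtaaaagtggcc
This motif was held by 15 of 43 replication genes with a window (34.9%) and by 5% of all genes tested with one. The related TTCGCGC was held by 9 of 43 (20.9%) and by 4.03%, and the motifs can overlap in TTGGCGCGAA. MCM6 fell from 85.2 to 49.8 CPM and E2F1 from 50.3 to 24.7 CPM.

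Mitosis genes fell less and less evenly, with 28 of 44 lower, 5 higher (13 and 0 with 9 libraries) and a median of -0.28. The number higher was 11 with scaling by library totals and 9 with the GC and length correction. NCAPG, a condensin subunit, fell from 86.5 to 37.4 CPM and CENPE, a kinetochore motor, from 79.4 to 38.1 CPM. KIF20A (90.3 to 141 CPM), PTTG1, the securin gene (50.4 to 74.3 CPM), and CDC25C (8.32 to 11.2 CPM) rose. CCNB1, PLK1 and CDC20 did not pass. After correction for GC content and length CCNB1 passed as higher and the others as lower, while PLK1 and CDC20 passed as higher with scaling by library totals, so no direction is given for them. The promoter letters TTTGAA, the cell cycle homology region of late cell cycle genes, were held by 26 of 37 mitosis genes with a window (70.3%) against 9.79% over all genes.

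Regulators ahead of S phase moved in both directions, with 8 of 17 higher and 9 lower (5 and 7 with 9 libraries). CCND1, the cyclin of G1 progression, had 2338, 2346 and 2402 CPM in Control and 486, 546 and 500.2 CPM in Soft, 4.63-fold lower (log2 fold change -2.21, SE 0.04, adjusted p = 2.6e-15, edgeR). Its partner CDK6 fell from 120.3 ± 10.1 to 29.9 ± 0.514 CPM (SD, n = 3), CDK2 from 74.6 to 33.2 CPM and CCND3 from 94.7 to 47.2 CPM. The inhibitors CDKN1C (0.277, 0.175 and 0.0868 CPM in Control and 3.44, 3.097 and 3.42 CPM in Soft), CDKN2B (31.8 to 78.1 CPM) and CDKN1B (39.6 to 77.2 CPM) rose, and so did CDKN2A and CDKN2C. CDKN1A was the inhibitor that fell, from 760.1 to 353 CPM. The median of the 17 genes was -0.69, and -0.30 after correction for GC content and length. Of 73 replication-dependent histone genes, whose transcripts mostly lack a poly(A) tail, 19 could be tested in these mRNA libraries. Of these 10 fell and none rose (6 and 0 with 9 libraries), with HIST1H2BK from 81.7 ± 1.84 to 22.99 ± 1.49 CPM (SD, n = 3) and HIST1H1C from 23.5 ± 1.35 to 9.02 ± 1.28 CPM (SD, n = 3). Many histone genes are near-identical copies, so values of single genes are uncertain.

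Biosynthesis followed in the same direction. Of 31 ribosome biogenesis genes 29 fell and 1 rose (24 and 1 with 9 libraries), with a median of -0.84. MYC, which drives many of them, had 104.8, 103 and 103 CPM in Control and 33.3, 37.7 and 34.6 CPM in Soft, 2.94-fold lower (log2 fold change -1.56, SE 0.05, adjusted p = 6.1e-13, edgeR). NOP16, WDR43 and RRS1, nucleolar assembly factors, fell from 40.9 to 14.2 CPM, from 93.5 to 33.7 CPM and from 67.8 to 25.4 CPM. The structural ribosomal proteins did not move with them: of 81 genes 26 rose, 15 fell, none by 2-fold, and the median was 0.04. These counts rested on the scaling, with 43 higher and 5 lower by library totals, 36 and 6 by upper quartiles, and none in either direction with 9 libraries. Cytosolic tRNA synthetases fell in 13 of 20 cases (9 with 9 libraries), with a median of -0.55, among them FARSB (102 to 35.4 CPM) and IARS (314 to 154 CPM), and rose in 3 (QARS, CARS and AARS). Chaperones of the heat shock response fell in 15 of 21 cases (8 with 9 libraries), with HSPD1 from 587 to 263 CPM and HSP90AA1 from 2264 to 1228 CPM, while CRYAB and the near-identical copies HSPA1A and HSPA1B rose.

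Cholesterol synthesis fell along nearly its whole length, with 17 of 20 enzymes lower (9 with 9 libraries) and a median of -0.79. MSMO1, the sterol C4 methyl oxidase, had 68.8, 77.1 and 97.7 CPM in Control and 22.8, 25.8 and 21.7 CPM in Soft, and Control replicate 3 stood above the other Control libraries. IDI1 fell from 57.4 ± 7.89 to 17.9 ± 2.11 CPM (SD, n = 3) and HMGCS1 from 63.7 to 29.7 CPM. TM7SF2, a sterol reductase, was the member that rose (8.46 to 25.03 CPM), and EBP and PMVK passed, as lower, only with the GC and length correction. The sterol element, searched as TCACNCCAC with N any base, was held by 0 of 15 cholesterol synthesis genes with a promoter window. Of all genes tested with a window 1.1% held it. In fatty acid synthesis FASN fell from 402 ± 20.4 to 150.4 ± 12.1 CPM (SD, n = 3) and ELOVL6 from 101 ± 4.04 to 35.3 ± 1.41 CPM (SD, n = 3). The median of that list was -0.38, and -0.12 after correction for GC content and length. Genes of sterol control, with a median of 0.48 and 0.21 after that correction, moved the other way in 8 of 10 cases (4 with 9 libraries): NR1H3, the liver X receptor, rose from 2.27 ± 0.433 to 9.43 ± 0.69 CPM (SD, n = 3) and its target ABCA1, a cholesterol exporter, from 24.3 ± 1.39 to 65.1 ± 3.805 CPM (SD, n = 3), while STARD4, a sterol carrier, fell from 47.1 to 11.4 CPM.

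Glycolytic enzymes fell modestly, in 14 of 17 cases (5 with 9 libraries) with a median of -0.37. HK2, the inducible hexokinase, fell most (103 ± 0.849 to 31.9 ± 2.12 CPM; SD, n = 3), and PKM rose (3712 to 5048 CPM). Nuclear subunits of oxidative phosphorylation showed no change of this kind, with 23 higher and 17 lower of 75 (2 and 2 with 9 libraries), none by 2-fold, and a median of 0.02. By library totals 36 were higher and 13 lower. HIF targets divided evenly, 18 higher and 18 lower of 43 (10 and 7 with 9 libraries), shares near those over all genes, with a median near 0 under either fit. The letters ACGTG, the core that HIF binds, were held on either strand by 23 of 34 HIF targets with a promoter window (67.6%) and by 26.6% of all genes tested with one. The higher members included NDRG1 (19.4, 19.6 and 19.4 CPM in Control and 92.995, 87.8 and 87.7 CPM in Soft) and DDIT4, an inhibitor of mTORC1 (12.6, 11.2 and 11.6 CPM in Control and 109, 104.9 and 104.97 CPM in Soft). The lower members included LOX (1552 to 509 CPM), AK4 (53.9 to 16.4 CPM) and HK2. The HIF factors HIF1A and EPAS1 did not pass (0.08 and -0.08), and after the GC and length correction HIF1A passed as higher and EPAS1 as lower. HIF1A also passed as higher with scaling by library totals and without Soft replicate 2.

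Against this background of lower growth genes, inflammatory genes rose. Of 29 NF-kB targets and cytokines 23 rose and none fell (12 and 0 with 9 libraries), with a median of 1.56. With the GC and length correction 2 members fell. CXCL1, CXCL2 and CXCL3 are among the 23. Each had at most 0.369 CPM in any Control library and could be tested through its Soft level, so it could only pass as higher. CCL2, the chemokine that recruits monocytes, had 12, 11.1 and 12.6 CPM in Control and 137, 150.4 and 148 CPM in Soft, 12.2-fold higher (log2 fold change 3.61, SE 0.06, adjusted p = 9.0e-16, edgeR). PTGS2, the inducible cyclooxygenase, had 6.37, 6.78 and 8.33 CPM in Control and 63.2, 101 and 77.9 CPM in Soft (log2 fold change 3.49, SE 0.16, adjusted p = 2.4e-11, edgeR). ICAM1, a ligand of leukocyte integrins, had 4.29, 4.42 and 4.69 CPM in Control and 42.9, 44.02 and 42.96 CPM in Soft. In each case every Soft library was above every Control library. IL6 rose from 8.47 ± 0.799 to 31.6 ± 6.01 CPM, IL1B from 36.4 ± 0.416 to 137 ± 20.3 CPM and CSF1 from 44.01 ± 1.898 to 162 ± 8.56 CPM (SD, n = 3 each). The feedback inhibitor NFKBIA rose from 17.8 to 52.5 CPM and BCL3 from 7.06 to 62.8 CPM, whereas TNFAIP3 and CXCL8 did not pass, with log2 fold changes of -0.18 and 0.30. After correction for GC content and length TNFAIP3 passed as lower and CXCL8 as higher, and CXCL8 also passed with both other scalings and without Soft replicate 1.

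The neighbouring chemokine genes CXCL1, CXCL3 and CXCL2, on chromosome 4 between 73869393 and 74099196 (GRCh38), show the element that NF-kB dimers bind, searched as GGGA followed by any 4 bases and CC, in like sequence at like distance from the start. Capitals mark overlapping matches.
CXCL1, chr4:73869293-73869343, plus strand: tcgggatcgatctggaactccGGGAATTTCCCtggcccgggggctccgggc
CXCL3, chr4:74038739-74038789, minus strand: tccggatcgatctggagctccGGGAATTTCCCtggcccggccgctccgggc
CXCL2, chr4:74099245-74099295, minus strand: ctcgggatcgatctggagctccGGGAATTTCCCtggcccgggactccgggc
CXCL1 rose from 0.24 to 1.06 CPM, CXCL3 from 0.281 to 0.991 CPM and CXCL2 from 0.131 to 1.02 CPM, all low levels, and reads may be shared between these paralogs. The element was held by 17 of 24 genes of the list with a window (70.8%) and by 30.9% of all genes tested with one. TNFAIP3 and CXCL8, which did not pass, held it too.

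Complement genes rose with them, 11 of 14 (9 with 9 libraries), 8 of these at least 2-fold, with a median of 2.39. C4A and C4B, which need to be read as a sum, are counted separately in these values. C4B, without a count in Control, could only pass as higher. The summed level of the list was 1744 to 1831 CPM in Control and 1833 to 1906 CPM in Soft. C3, the component on which all routes of activation converge, had 4.11, 3.59 and 4.12 CPM in Control and 62.1, 68.1 and 65.2 CPM in Soft (log2 fold change 4.05, SE 0.08, adjusted p = 2.0e-15, edgeR). C1R, a protease of the first component, had 11.4, 10.9 and 11.3 CPM in Control and 154, 133 and 143 CPM in Soft. C1S, the protease that C1R activates, had 16.1, 14.6 and 13.5 CPM in Control and 95.2, 85.5 and 89.2 CPM in Soft. All Soft libraries of these genes lay above all Control libraries. The members that fell, CD46 (144 to 102 CPM) and CD59 (1356 to 1029.7 CPM), are membrane-bound inhibitors of complement, and CD55, another such inhibitor, rose (64.2 to 115 CPM). Interferon-stimulated genes did not move together, with 16 higher and 12 lower of 37 (4 and 7 with 9 libraries), and their median turned from -0.03 to 0.12 with the GC and length correction. IFI6 (100.3 to 19.2 CPM) and OAS1 (3.99 to 0.91 CPM) fell, while IRF1 (17.1 to 52.6 CPM) and IRF9 (16.9 to 39.2 CPM) rose. In the proteasome the 3 subunits of the immunoproteasome, PSMB8, PSMB9 and PSMB10, rose by 1.04, 2.35 and 1.32 on the log2 scale, whereas 22 of 37 subunits fell (2 with 9 libraries).

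Immediate early factors were mostly higher at 24 h. Of 17 AP-1, EGR and NR4A genes 11 rose and 4 fell (6 and 1 with 9 libraries). NR4A2, an orphan nuclear receptor, had 1.29, 1.49 and 1.56 CPM in Control and 18.4, 19.6 and 19.04 CPM in Soft. FOS (1.39 to 7.06 CPM), FOSB (2.36 to 12.5 CPM), JUNB (31.7 to 99.7 CPM) and EGR1 (20.7 to 61.5 CPM) rose, and FOSL1 fell from 316 ± 5.16 to 163 ± 9.08 CPM (SD, n = 3). In the BCL2 family BCL2L11, the BH3-only protein BIM, rose beside BMF, with 3.46, 4.33 and 4.64 CPM in Control and 50.8, 45.4 and 46.4 CPM in Soft (log2 fold change 3.51, SE 0.09, adjusted p = 5.2e-14, edgeR). Other BH3-only genes were divided, as BBC3 rose from 6.94 to 13.2 CPM and PMAIP1 fell from 28.3 to 15.8 CPM. BCL2L1, the survival protein BCL-XL, fell from 248 to 145 CPM, and MCL1 did not pass (-0.09). Of the 13 family members tested 4 rose and 7 fell (3 and 2 with 9 libraries). These are 30.8% and 53.8%, against 35.5% and 35.2% of all genes, so the rises of BMF and BCL2L11 were not shared by the family.

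Lysosomal genes rose in 30 of 40 cases (18 with 9 libraries), with a median of 0.58, and their summed level was 8903 to 9143 CPM in Control and 15287 to 15935 CPM in Soft. CTSD, the major aspartic protease of lysosomes, had 922, 874 and 853 CPM in Control and 2719.6, 2477 and 2520.2 CPM in Soft (log2 fold change 1.54, SE 0.04, adjusted p = 1.0e-13, edgeR). CTSF (12.3 to 40.9 CPM), the acid glucosidase GAA (33.2 to 83.5 CPM) and SQSTM1, an autophagy receptor (525 to 1012 CPM), rose as well, and TFEB, a factor that drives lysosomal genes, rose from 4.89 ± 0.321 to 14.6 ± 0.746 CPM (SD, n = 3). LIPA, ATP6V1A, UVRAG and MAP1LC3B were among the 6 that fell. Windows of 3 members are shown with the core that TFEB binds, TCACGTG, in capitals on either strand.
CTSD, chr11:1763937-1764017, minus strand: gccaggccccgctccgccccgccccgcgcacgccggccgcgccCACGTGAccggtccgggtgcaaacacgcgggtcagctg
CTSA, chr20:45891245-45891325, plus strand: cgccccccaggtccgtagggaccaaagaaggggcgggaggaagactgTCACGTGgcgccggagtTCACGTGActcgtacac
GAA, chr17:80101491-80101571, plus strand: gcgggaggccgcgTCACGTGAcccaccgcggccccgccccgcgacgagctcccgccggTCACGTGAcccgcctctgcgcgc
This core contains ACGTG, the letters that HIF also binds. It was held by 8 of 28 genes of the list with a window (28.6%) and by 5.85% of all genes tested with one. CTSA, protective protein of the sialidase complex, rose from 181 to 405 CPM.

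**Figure D5:**
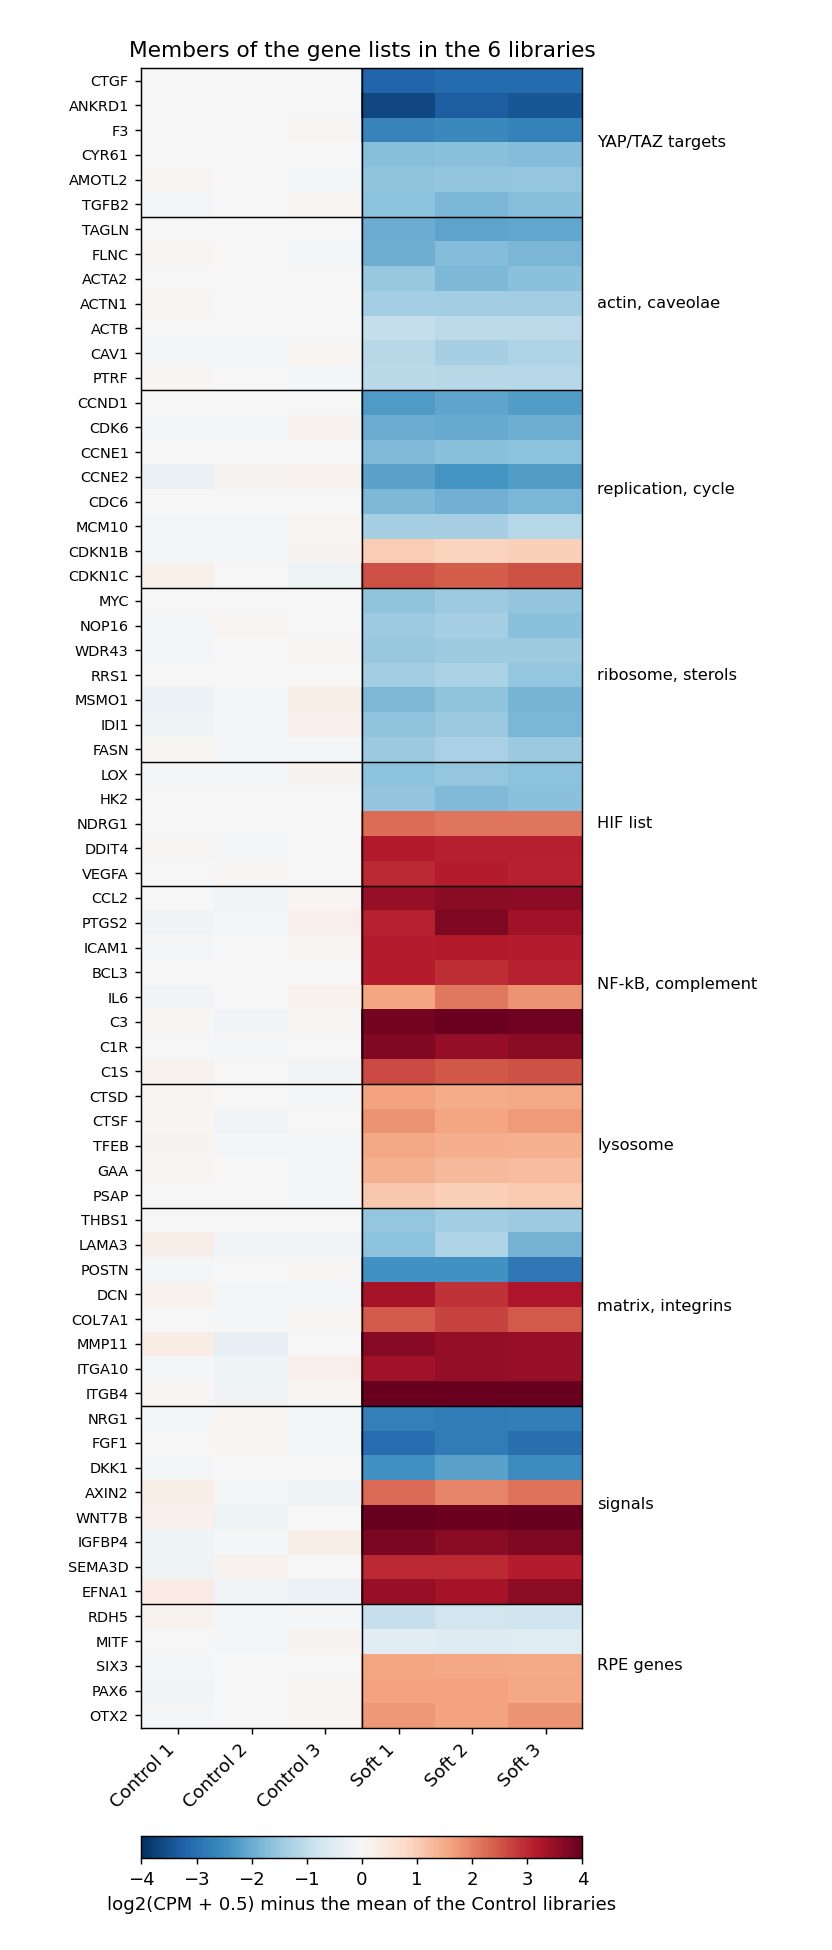
Each cell is log2(CPM + 0.5) in 1 library minus the mean of the 3 Control libraries, for members of the gene lists (rows) in the 6 libraries (columns), with colours saturating at 4 in either direction. The 3 Soft libraries carry the same colour in nearly every row, and rows such as LOX and VEGFA within the HIF list are opposite.

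Antioxidant genes under NRF2 were divided. ABCC3, an export pump, had 4.02, 3.28 and 3.73 CPM in Control and 51.3, 54.95 and 51.1 CPM in Soft. The ferritin genes FTH1 and FTL (835 to 1499 CPM), NQO1 (226 to 484 CPM) and AKR1B1 (125 to 409 CPM) rose. TXNRD1, thioredoxin reductase, fell from 1326 ± 3.55 to 431 ± 38.9 CPM (SD, n = 3), and SRXN1 (136 to 72.8 CPM), GCLM (45.3 to 24.6 CPM) and PRDX1 (433 to 269.8 CPM) fell too. NFE2L2, the gene of NRF2, rose from 82.7 to 181 CPM. In all 12 of 23 rose and 10 fell (11 and 4 with 9 libraries). Clock genes rose in 11 of 17 cases (5 with 9 libraries), with the output factors DBP (1.75, 1.88 and 1.52 CPM in Control and 14.6, 10.7 and 11.8 CPM in Soft) and TEF (13.9 to 40.03 CPM) leading, and CLOCK (45.6 to 27.4 CPM) and CRY1 (21.7 to 15.7 CPM) lower.

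The matrix that the cells express was exchanged in part. Among basement membrane genes LAMA3, a laminin alpha chain, fell from 4.81 ± 0.749 to 1.28 ± 0.412 CPM (SD, n = 3) and COL4A1 from 1609 ± 25.9 to 625 ± 5.87 CPM (SD, n = 3). LAMA4 (177 to 483 CPM), NID2 (230.3 to 589 CPM) and LAMB1 (750.2 to 1149 CPM) rose. Of the collagens 10 of 16 rose and 5 fell (8 and 0 with 9 libraries). COL7A1, the collagen of anchoring fibrils, had 62.4, 60.4 and 64.4 CPM in Control and 341, 406 and 342 CPM in Soft. COL16A1 (4.96 to 19.7 CPM), COL3A1 (0.55 to 4.46 CPM) and COL14A1 (0.177 to 3.17 CPM) rose at low levels. Of the enzymes that modify collagen PLOD2, a lysyl hydroxylase, fell from 1068 ± 89.7 to 304 ± 17.4 CPM and LOX, which cross-links fibrils, from 1552 ± 91.3 to 509 ± 14.9 CPM (SD, n = 3 each). P4HA3 (3.02 to 20.2 CPM), ADAMTS14 (28.7 to 85.4 CPM) and SERPINH1, a collagen chaperone (363 to 708 CPM), rose. Medians were 0.29 for basement membrane and 0.31 for the modifying enzymes, and 0.07 and 0.05 after correction for GC content and length.

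Of 23 matrix glycoproteins 14 rose, 11 of them at least 2-fold, and 7 fell (9 and 2 with 9 libraries). DCN, the small proteoglycan decorin, had 2.82, 2.36 and 2.39 CPM in Control and 29.3, 22.01 and 27.9 CPM in Soft. VCAN, the large proteoglycan versican, rose from 1078 ± 23.2 to 2384 ± 129.6 CPM (SD, n = 3), LTBP1, which stores latent TGF-beta, from 167 ± 6.03 to 498 ± 36.5 CPM (SD, n = 3) and MFAP2, a microfibril protein, from 22.3 to 85.3 CPM. THBS1, an adhesive glycoprotein, had 6022, 5970.3 and 5812 CPM in Control and 2035, 2244 and 2178 CPM in Soft. POSTN, periostin, had 17.9, 19.03 and 19.1 CPM in Control and 3.08, 3.05 and 2.13 CPM in Soft. Both fell, with wide gaps between the groups. Among proteases MMP11 had 2.58, 1.53 and 2.08 CPM in Control and 31.4, 28.3 and 27.9 CPM in Soft. ADAMTS1, a protease of versican, had 656, 649 and 639 CPM in Control and 68.2, 97.1 and 79.002 CPM in Soft.

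Of the 18 integrin genes tested 7 rose and 7 fell (3 and 2 with 9 libraries), 38.9% each, which is near the 35.5% and 35.2% of all genes. ITGB4, the integrin subunit of hemidesmosomes, had 3.74, 3.19 and 3.86 CPM in Control and 80.1, 64.5 and 73.9 CPM in Soft, 20.2-fold higher (log2 fold change 4.34, SE 0.10, adjusted p = 2.0e-14, edgeR). ITGA6, the alpha subunit it pairs with, fell from 276 ± 9.73 to 103 ± 2.33 CPM (SD, n = 3). The collagen receptor subunits ITGA10 (5.68, 5.25 and 6.94 CPM in Control and 65.03, 73.4 and 71.7 CPM in Soft) and ITGA11 (486 to 1368 CPM) rose. ITGA5, the alpha subunit of the main fibronectin receptor, fell by 0.24 on the log2 scale, and ITGB1, the shared beta subunit, fell from 3944 to 2754 CPM.  At cell junctions JUP, plakoglobin, rose from 74.3 ± 4.23 to 481 ± 4.49 CPM (SD, n = 3), while the desmosomal partner PKP2 fell from 72.8 ± 1.905 to 14.7 ± 1.24 CPM (SD, n = 3) and DSP from 353 to 193 CPM.

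Secreted signals also changed in both directions. Among EGF family ligands NRG1 had 43.1, 47.2 and 43.3 CPM in Control and 6.29, 5.91 and 6.17 CPM in Soft. HBEGF had 112, 118 and 113 CPM in Control and 17.8, 22.2 and 19.1 CPM in Soft, and both were thus low on the gel. LRIG1, a negative regulator of the receptors, rose from 52.8 ± 2.45 to 179 ± 2.03 CPM (SD, n = 3). The fibroblast growth factors FGF1 (42.9, 45.7 and 42.3 CPM in Control and 4.797, 5.91 and 5.02 CPM in Soft), FGF2 (193 to 45.7 CPM) and FGF5 (135 to 27.5 CPM) fell. VEGFA, the main growth factor of vessels, had 121, 125 and 121 CPM in Control and 967, 1082 and 1036 CPM in Soft, 8.403-fold higher, and ANGPTL2 rose from 9.93 ± 0.705 to 102 ± 3.800 CPM (SD, n = 3). In the IGF axis the binding protein IGFBP5 had 308, 304 and 290.3 CPM in Control and 42.6, 40.1 and 41.1 CPM in Soft. IGFBP4 had 4.11, 4.51 and 5.68 CPM in Control and 69.9, 62.6 and 69.1 CPM in Soft, and IGFBP1 rose from 4.98 to 38.6 CPM. The binding proteins thus moved in opposite directions with no overlap between the groups.

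TGF-beta and BMP genes rose in 24 of 37 cases and fell in 6 (13 and 3 with 9 libraries). TGFB1 rose from 242 ± 9.701 to 634 ± 34.5 CPM (SD, n = 3) and BMP6 from 3.11 ± 0.514 to 12.1 ± 1.46 CPM (SD, n = 3), while TGFB2 fell from 339 ± 19.3 to 102 ± 6.003 CPM and the inhibitors FST from 62.5 ± 4.16 to 15.8 ± 2.06 CPM and GREM1 from 618 ± 18.3 to 301 ± 38.9 CPM (SD, n = 3 each). In the Wnt pathway WNT7B had 0.6, 0.35 and 0.477 CPM in Control and 16.7, 14.2 and 14.7 CPM in Soft. AXIN2, a target and feedback inhibitor, had 0.923, 0.613 and 0.521 CPM in Control and 5.11, 4.08 and 4.75 CPM in Soft, and TCF7 rose from 17.5 to 71.2 CPM. The secreted inhibitor DKK1 fell from 81.9 ± 1.69 to 15.5 ± 2.42 CPM (SD, n = 3) and WNT5B from 386 to 154 CPM. In the Notch pathway DLL1 (0.277, 0.35 and 0.608 CPM in Control and 3.35, 3.14 and 3.42 CPM in Soft), LFNG (1.64 to 11.1 CPM) and NOTCH3 (1.87 to 7.94 CPM) rose from low levels, and NOTCH2, another receptor, fell from 462 to 319.8 CPM. Of 35 semaphorin, plexin, ephrin and related guidance genes 23 rose and 9 fell (16 and 6 with 9 libraries). SEMA3D had 7.52, 9.495 and 8.72 CPM in Control and 70.4, 70.9 and 79.6 CPM in Soft. EFNA1, an ephrin, had 0.923, 0.569 and 0.477 CPM in Control and 12.3, 11.1 and 13.1 CPM in Soft. SEMA7A, an integrin ligand, fell from 377 ± 17.9 to 133 ± 10.7 CPM (SD, n = 3).

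Genes of the labelled tissue were partly higher on the gel. Of 24 retinal pigment epithelium genes 12 could be tested, and 7 of these rose, all at least 2-fold, while RDH5, MITF and RDH11 fell (6 and 0 with 9 libraries). OTX2 had 10.2, 10.8 and 11.6 CPM in Control and 37.2, 34.3 and 39.1 CPM in Soft (log2 fold change 1.76, SE 0.07, adjusted p = 9.4e-12, edgeR). PAX6, a factor of eye development, had 19.3, 21.1 and 21.96 CPM in Control and 64.4, 64.2 and 61.8 CPM in Soft. SIX3, another eye field factor, rose from 44.1 ± 1.38 to 130.1 ± 3.49 CPM (SD, n = 3). RDH5, a retinol dehydrogenase, fell from 19.9 ± 1.74 to 11.1 ± 0.817 CPM (SD, n = 3). Since the visual cycle genes RPE65, RLBP1 and LRAT stayed untested in both groups, the values describe these members and not the list as a mature tissue program. KRT18 (928, 889 and 871 CPM in Control and 381, 357 and 345 CPM in Soft) and KRT8 (1072 to 541 CPM) fell. Of 17 fibroblast and mesenchymal markers tested 10 rose and 6 fell (7 and 0 with 9 libraries). The mesenchymal genes PDGFRB (27.9, 27.2 and 27.3 CPM in Control and 194, 188 and 189.6 CPM in Soft) and PDGFRA (3.595 to 22.6 CPM) rose and SNAI2 fell (10.9 to 3.601 CPM). Scaled over all 9 libraries, COL1A1 had 135, 127 and 128 CPM in Control and 245, 271 and 252 CPM in Soft. On that scale CDH2 was lower in Soft, with 410, 412 and 415 CPM in Control and 329, 355 and 347 CPM in Soft.

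Cilium genes rose in 24 of 41 cases and fell in 11 (12 and 2 with 9 libraries), with a median of 0.37, and 0.61 after correction for GC content and length, where 4 fell. The primary cilium is the antenna of hedgehog signalling, and the hedgehog targets GLI1 (1.15, 1.23 and 0.824 CPM in Control and 5.39, 5.396 and 6.302 CPM in Soft) and PTCH1 (2.85 ± 0.504 to 9.73 ± 0.605 CPM; SD, n = 3) rose. IFT140, of the retrograde transport complex, rose from 13.99 ± 1.02 to 47.02 ± 1.74 CPM (SD, n = 3) and BBS1 from 12.6 to 33.7 CPM, while CEP290, of the transition zone, fell from 33.8 ± 3.39 to 16.3 ± 1.09 CPM (SD, n = 3). The nuclear envelope showed LMNA at 915 to 1394 CPM and SUN2 at 108 to 215 CPM, both higher, and LBR (57.2 to 36.5 CPM) and TMPO (135 to 86.3 CPM) lower. Of channels that respond to stretch PIEZO1 fell from 429 ± 21.4 to 279.7 ± 15.1 CPM (SD, n = 3) and TRPV2 rose from 1.01 ± 0.127 to 4.29 ± 0.284 CPM (SD, n = 3).

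PIP4K2B itself, the phosphoinositide kinase that the series is about, had 122, 123 and 119 CPM in Control and 118, 119.8 and 126 CPM in Soft, and the groups overlapped (log2 fold change 0.00, SE 0.04, adjusted p = 0.98, edgeR). The estimate was -0.12 after correction for GC content and length, where it passed (adjusted p = 0.0031, edgeR). PIP4K2A did not pass (log2 fold change 0.03, SE 0.05, adjusted p = 0.62, edgeR) and PIP4K2C fell by 0.18 (adjusted p = 0.0055, edgeR), a call that was lost in 7 of the alternatives, among them the omission of replicate 1 or replicate 2 of either group. Of the 37 phosphoinositide enzymes tested 11 rose and 14 fell (4 and 6 with 9 libraries), shares near those over all genes, with PIK3C2B (0.946 to 6.26 CPM) and SYNJ2 (111 to 312 CPM) among the highest in fold change and PLCE1 (57.8 to 22.4 CPM) lowest.

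Soft was also compared with sh_PIP4K2B in 1 fit over the 9 libraries, in which 1998 of 13784 genes (14.5%) were higher in Soft and 2137 (15.5%) lower at an adjusted p under 0.01 (edgeR). In this paragraph CPM are scaled over all 9 libraries. CTGF was at 153, 165 and 163 CPM in Soft against 634, 884 and 979 CPM with hairpins #1, #2 and #3 (log2 difference -2.37, SE 0.17, adjusted p = 1.8e-05, edgeR). CCL2 was at 138, 153 and 149 CPM in Soft against 9.85, 12.04 and 14.8 CPM (log2 difference 3.58, SE 0.16, adjusted p = 2.1e-06, edgeR). BMF was at 226, 233 and 231 CPM in Soft against 26.7, 35.98 and 35.8 CPM (log2 difference 2.81, SE 0.13, adjusted p = 3.3e-06, edgeR). These genes differed between the conditions, and C3 and PTGS2 did not pass (adjusted p = 0.03 and 0.22, edgeR). Among the lists 14 of 24 YAP and TAZ targets and 19 of 31 ribosome biogenesis genes were lower in Soft, and 10 of 40 lysosomal genes were higher and 1 lower. DNA replication genes were higher in 5 and lower in 7 of 50 cases, with a median difference of 0.04, and mitosis genes were higher in Soft in 27 of 44 cases. Actomyosin genes were lower in 5 and higher in 2 of 42 cases.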

How the data were processed

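RNA of hTERT_RPE1 cells was sequenced as stranded, poly(A)-selected mRNA libraries. The authors aligned reads to GRCh38 with STAR, and the submitters' processing notes also name Salmon and list the build as GRCh38 and hg38; the annotation is not given in the sources used here. The table deposited by the authors holds estimated counts per gene symbol, not scaled between libraries, of which 12.3% were not whole; values were rounded. Replicates were not pooled. Of 26475 symbols 23161 matched a current symbol, 1361 an older one and 1953 none.

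Genes passing filterByExpr were fitted with TMM scaling by edgeR's quasi-likelihood test (edgeR 4.0.16, limma 3.58.1, R 4.3.3) on the 6 libraries compared, with Benjamini-Hochberg adjustment over all genes tested and a threshold of 0.01. DESeq2 1.42.0, other filters and scalings, per-library trends on transcript GC content and length (GENCODE annotation) as offsets, all 9 libraries, a replicate block and the omission of each library were alternatives. The sample titles number Control and Soft libraries alike. Same-numbered Control and Soft libraries had deviations correlated at -0.0502, 0.00483 and 0.0486, and differently numbered ones between -0.133 and 0.122. No pairing was thus seen, but so few libraries cannot exclude a shared origin of same-numbered ones. Replicates differed by more than sampling noise.

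The groups were chosen by their labels, and gene lists, written from general knowledge, and named members were chosen with earlier results of these data known. Named were the 15 highest and 15 lowest fold changes among called genes averaging 50 counts or more in either group, up to 3 highest and 3 lowest of each list by the same limits, the PIP4K2 genes and cell type markers. Other members, and genes named for their CPM difference, were named after their values were seen. TSIX and some other genes that met the rule are not reported here. A share of counts from the mitochondrial genome could not be computed, as no gene named MT- was among the rows used. Promoter windows are those of RefSeq on GRCh38.p14, given for 10906 of the 13578 genes tested, and coordinates follow GRCh38. Intervals and floors cover counting error only.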

Additional observations from a re-analysis of the deposited data

How the results depend on the processing

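With all 9 libraries in the fit, 2181 genes were higher and 2036 lower in Soft, against 4818 and 4783, and 1375 and 867 passed at 2-fold; the spread then includes that between the 3 hairpins. Of 459 tested genes that the rule or the text named, 118 lost their call in that fit and none changed direction. Those in the text were AARS, ACTA2, ACTG1, ARHGEF17, ATP6V1A, CARS, CD46, CD59, CDC25C, CDH2, CDKN1A, CDKN2B, CLOCK, CRY1, CRYAB, CXCL1, CXCL2, CXCL3, EEF1A1, EGR1, FN1, FOS, FTL, GREM1, HMGCS1, HSP90AA1, HSPA1A, HSPA1B, ITGA5, ITGB1, KDR, KIF20A, LAMB1, LIPA, LMOD1, MCM7, MITF, MKL2, MMP2, MYLK, NOTCH2, OAS1, PIEZO1, PIP4K2C, PKM, PTTG1, RDH11, RDH5, SNAI2, SRF, TAGLN2, TIE1, TLN1, TM7SF2, TMSB10, UVRAG, VCAN, VCL, VIM and YAP1. In every other alternative at most 10 of these genes lost their call. The other counts of Soft against Control over all genes stayed within 1.5 times. Leaving out 1 library gave 4466 to 4680 genes higher, 4451 to 4770 lower, 1675 to 1731 at least 2-fold higher and 1015 to 1137 at least 2-fold lower. The replicate block gave 4723 higher and 4711 lower, and with GC content and length correction 4753 and 4721. DESeq2 gave 4431 and 4567. Scaling by library size alone moved the median of all genes to 0.12 and gave 5656 and 4035, so that 58.4% rather than 50.2% of the calls were higher. Genes that differed between Soft and sh_PIP4K2B numbered 4135, and 2183 in a fit of those 6 libraries, 3366 with the replicate block, and 4749 to 5374 without 1 hairpin library. Of medians at least 0.1 from 0, those that changed sign were matrix proteases from -0.107 to 0.202 without a filter and 0.005 with library size scaling, metallothioneins from -0.132 to 0.023 and simple epithelial markers from -1.149 to 0.299 without a filter, and vessel factors from -0.186 to 0.029 without a filter, 0.045 with 9 libraries and between -0.274 and 0.108 without 1 library (0.052 and 0.108 without Soft replicates 2 and 3). Endothelial markers turned from 0.178 to -0.303 without a filter, -0.085 and -0.067 with the GC and length correction without and with the replicate block, and -0.061 and -0.011 without Control replicate 2 and Soft replicate 2, within a range up to 0.545 without 1 library. With the GC and length correction, without and with the replicate block, ARL6 turned to 0.031 and 0.03, AXL to -0.153 and -0.152, CCNB1 to 0.18 and 0.179, CDC20 to -0.162 and -0.164, PLK1 to -0.187 in both and TAGLN2 to -0.013 in both. No keratin-associated protein gene had 10 counts in each library, so that filter gave no value for the list. The causes were not tested.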
